A study of Mus musculus with 2 samples.

Results

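The regions described here are the Smad4 peaks on the telomere-side ends of the mouse autosomes. A peak belongs to this set when its end lies within 5 Mb of the largest peak end on its chromosome, on chromosomes 1 to 19. This gave 3009 of the 84788 autosomal peaks (3.55%), out of 90984 peaks in the whole list. The choice rests on position alone, so the number of peaks, their tags, their lengths and their enrichment were free to differ from the rest. The data are a peak list from chromatin immunoprecipitation and sequencing (ChIP-seq) with a Smad4 antibody on forelimbs of C57BL/6 embryos. The antibody library (1 sample) is matched by 1 input library, made from forelimb chromatin without antibody. Each is labelled with both embryonic days 12.5 and 13.5, and the labels name no mutation or treatment for either. The series title sets the study in chondrocyte hypertrophy and the factor Runx2, and the submitters sought direct targets of Smad4. A forelimb holds cartilage, muscle, skin, vessel and other cells, and the peak list cannot tell them apart. With 1 library per group no difference below has a replicate check or a p-value. Positions are mm9 and 1-based.

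Mouse autosomes are acrocentric. The centromere lies at the start of the numbered sequence, and the distal end is the telomere-side end of the long arm. Telomeres are arrays of a short repeat bound by the shelterin proteins, and such arrays are largely missing from assembled sequence, so the last peak of a chromosome marks the last called region and not the telomere itself. Smad4 joins the receptor-activated Smads in a complex that binds DNA downstream of TGF-β and BMP receptors, and both pathways act in limb cartilage. Nothing in the list ties a peak to a gene, and mm9 sequence and genes were not used here, so regions are named by position and no sequence is shown.

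The distal ends held fewer peaks per Mb than the rest of the same chromosomes, and so did the sequence next to them, described below. The distal density was 31.7 peaks per Mb (exact Poisson 95% interval 30.6 to 32.8) over 95 Mb, against 35.3 per Mb (35.0 to 35.5) over 2320 Mb, a ratio of 0.898 (0.866 to 0.932). Peaks covered 1.98% of the distal ends and 2.24% of the rest. The median stretch without a peak between neighbours was 18320 bp in the distal ends and 16811 bp elsewhere. Intervals here and below cover counting error only. They treat peaks as independent, which neighbouring peaks are not, and may therefore be too narrow.

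The distal density was lower on 14 of 19 chromosomes and higher on chromosomes 3, 8, 10, 12 and 18. The lowest distal density was 20.2 peaks per Mb on chromosome 4, where the rest held 37.1 per Mb, a ratio of 0.544 (0.443 to 0.663). Chromosome 11 followed with 22.0 per Mb against 30.5 (ratio 0.722, 0.592 to 0.873), and chromosome 5 with 24.6 against 35.2 (ratio 0.6996, 0.5802 to 0.837). The highest was 41.4 per Mb on chromosome 12, against 34.5 in its rest, a ratio of 1.201 (1.04 to 1.38). The interval of the ratio lay below 1 on 7 chromosomes (2, 4, 5, 7, 11, 14 and 16), above 1 on chromosome 12 and held 1 on the other 11. On chromosome 14 the density of the rest, 45.7 per Mb, was the highest of all autosomes, while its distal end had 35.0 per Mb. The distal ends thus spread from 20.2 to 41.4 peaks per Mb around a median of 32.4, and the rests from 30.5 to 45.7 around a median of 35.2.

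**Figure D1:**
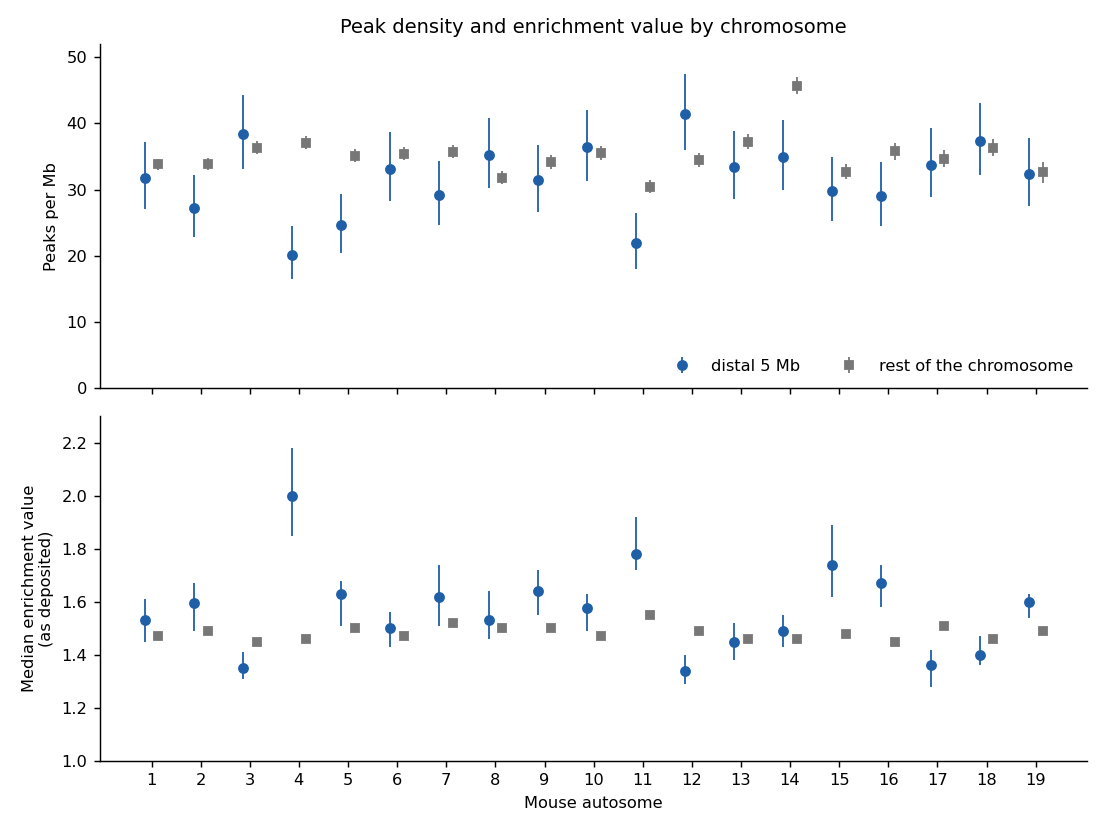
Upper panel, peaks per Mb in the distal 5 Mb (circles) and in the rest (squares) of each autosome, with exact Poisson 95% intervals. Lower panel, the median deposited enrichment value of the same peaks, with the 95% order-statistic interval for the distal ends. Chromosomes 4 and 11 combine the lowest distal densities, 20.2 and 22.0 per Mb, with the highest distal medians, 2.0 and 1.78.

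A 5 Mb end was also set beside the other 5 Mb blocks of its chromosome, counted back from the last peak. The 19 distal blocks held a median of 162 peaks (quartiles 145.5 and 175.5, range 101 to 207) and the 454 other complete blocks a median of 171 (quartiles 152 and 192, range 22 to 780). The distal block was the emptiest of 23 blocks on chromosome 11, and only 1 of 30 blocks on chromosome 4 and 1 of 19 on chromosome 16 held fewer peaks. On chromosome 12 only 3 of 23 blocks held more. Low counts were therefore common among the distal blocks, and they lay within the range of the other blocks.

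Within the distal ends the peaks were not evenly spread. The last 1 Mb held 786 peaks, or 41.4 per Mb (38.5 to 44.4), while the 4 Mb further in held 2223, or 29.2 per Mb (28.0 to 30.5). Each chromosome's last peak defines the end and so lies in the last 1 Mb by construction, and without these 19 peaks the density there was 40.4 per Mb (37.6 to 43.3). By 1 Mb steps inward the densities were 41.4, 30.5, 29.6, 26.6 and 30.3 per Mb. Between 5 and 10 Mb it was 29.9 per Mb (28.8 to 31.1) and between 10 and 20 Mb 30.4 (29.7 to 31.2). It was 31.7 between 20 and 30 Mb and 34.6 per Mb between 40 and 50 Mb. The sequence from 5 to 20 Mb was thus no denser than the distal 5 Mb at 31.7 per Mb. The lower density was therefore not particular to the distal 5 Mb. In 16 of 19 chromosomes the last 1 Mb held more peaks than the mean of the next 4 steps, with chromosomes 4, 7 and 19 as exceptions. It was the fullest of the 5 steps on 10 chromosomes. Counts in the last 1 Mb ran from 18 on chromosome 7 and 19 on chromosome 4 to 61 on chromosome 18, with a median of 40. Over all 95 steps the fewest peaks were 10, on chromosome 5 between 3 and 4 Mb from the end, and the most were 67, on chromosome 12 between 4 and 5 Mb.

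At 100 kb resolution the excess was steepest at the tip. The last 100 kb held 119 peaks over the 19 chromosomes (62.6 per Mb), the next 100 kb 87 (45.8 per Mb) and the 100 kb between 900 and 1000 kb 71 (37.4 per Mb). The 119 peaks of the tip include the 19 that define the ends. Their median enrichment value was 1.36 and their median number of tags 17, against 1.48 and 16 between 900 and 1000 kb.

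Across the limit at 5 Mb the density was close, and the median enrichment value was higher outside. The 576 peaks between 4 and 5 Mb from the end had a median enrichment value of 1.5 and the 568 between 5 and 6 Mb one of 1.60, at 30.3 and 29.9 peaks per Mb. The values of at least 3 described below numbered 14 inside and 10 outside. Without chromosome 12, whose densest step lies just inside the limit, the counts were 509 peaks inside and 544 outside. The medians were not computed without this chromosome. Its 67 peaks inside had a median value of 1.2 and its 24 outside one of 1.37. The limit is thus a line of the rule, with no clear step in density at it.

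The distal peaks had the size of ordinary peaks. A tag is a sequenced read placed in the peak, and no peak holds fewer than 15. The median was 16 tags in the distal ends and 16 in the rest, with quartiles of 15 and 19 in both. The median length was 585 bp in both, with quartiles of 553 and 633 bp in the distal ends and 552 and 635 bp in the rest. The median was 28.6 tags per kb (order-statistic 95% interval 28.5 to 28.8) against 28.8 (28.8 to 28.9). This difference of -0.203 tags per kb is small beside the quartiles of the distal peaks, 26.8 and 31.5, and the distal median was lower on 12 of 19 chromosomes and higher on 7. Exactly 15 tags were held by 35.7% of distal peaks (exact binomial 95% interval 33.9 to 37.4%) and 34% of the rest (33.7 to 34.3%). At 15 tags the counting interval of a peak runs from 8.40 to 24.7 tags, so peaks of this size cannot be ordered by their tags.

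Peaks over 2000 bp made up a smaller share of the distal peaks than of the whole rest, and peaks of over 50 tags a similar one. The longest distal peak measured 2209 bp and the longest in the rest 13212 bp. Peaks over 2000 bp numbered 2 among the 3009 distal peaks (0.0665%, exact binomial 95% interval 0.00805 to 0.240%) and 377 among the 81779 others (0.461%, 0.416 to 0.510%). The others were unevenly spread, with 35 between 9 and 10 Mb from the end alone. Between 20 and 30 Mb the share was 0.249% (0.139 to 0.410%). It was 0.222% (0.121 to 0.372%) between 30 and 40 Mb and 0.182% (0.0943 to 0.318%) between 40 and 50 Mb. These intervals overlap the distal one. The share was 1.62% (1.19 to 2.15%) between 5 and 10 Mb and 0.605% (0.422 to 0.841%) between 10 and 20 Mb. Between 50 and 55 Mb it was 0.780% (0.510 to 1.14%). The last 3 intervals lie above the distal one. The distal share was thus below each of these, but the size of the contrast depended on the sequence compared. No distal peak was over 5000 bp, which at this number of peaks allows a share of up to 0.123% (exact binomial). The rest held 50 (0.0611%), a share below that limit, so a difference was not detectable at this number of peaks. The most tags in a distal peak were 194, against 3730 in the rest, and 0 of the 100 autosomal peaks with the most tags were distal, where distal peaks make up 3.55% of the list. Peaks of over 50 tags were about as frequent in both, at 0.474 and 0.470 per Mb, or 45 (1.496%, 1.09 to 1.996%) and 1090 (1.33%, 1.26 to 1.41%). The mean number of tags was 19.02 in the distal ends and 19.58 in the rest, and it was lower on 15 of 19 chromosomes, the exceptions being 9, 12, 16 and 19.

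Enrichment was where the distal peaks differed. The list gives each peak a fold enrichment by the authors' caller. Its scale is open, because peaks with a value below 1 still carry p-values of 9.98e-06 or less, so it is called the enrichment value here and used only to rank and group peaks. Among all autosomal peaks a value of at least 3 was reached by 0.810%. Of the distal peaks it was reached by 57 (1.89%, exact binomial 95% interval 1.44 to 2.45%), and of the rest by 630 (0.770%, 0.712 to 0.833%). Per Mb this was 0.600 (0.454 to 0.777) against 0.272 (0.251 to 0.294), a ratio of 2.21 (1.65 to 2.9). Chromosome 4 alone held 19 of the 57. Without it the distal share was 38 of 2908 (1.31%, 0.926 to 1.79%) against 0.761% (0.701 to 0.826%) in the rest of the other 18 chromosomes, and the density ratio was 1.58 (1.11 to 2.19). A value of at least 2 was reached by 553 distal peaks (18.4%, 17.01 to 19.8%), with 13.9% among all autosomal peaks and 13.7% (13.5 to 13.98%) in the rest. Values below 1 were held by 109 distal peaks (3.62%, 2.98 to 4.35%), with 4.36% among all autosomal peaks and 4.38% (4.24 to 4.53%) in the rest.

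The lower density of the distal ends therefore concerned peaks with values under 2. These include the class from 1.5 to under 2, which lies above the autosomal median of 1.48. Peaks below 1 had 0.743 times the density of the rest (0.608 to 0.899), those from 1 to under 1.5 had 0.828 times (0.783 to 0.875) and those from 1.5 to under 2 had 0.894 times (0.840 to 0.951). From 2 to under 3 the ratio was 1.14 (1.04 to 1.25). The order of these ratios was the same without chromosome 4, at 0.805, 0.862, 0.919, 1.13 and 1.58. The whole set is dominated by the classes under 2, with 1302 distal peaks between 1 and 1.5 and 1045 between 1.5 and 2. The line at 3 is a convention, with 11 distal peaks from 2.9 to under 3 and 18 from 3 to under 3.1.

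**Figure D2:**
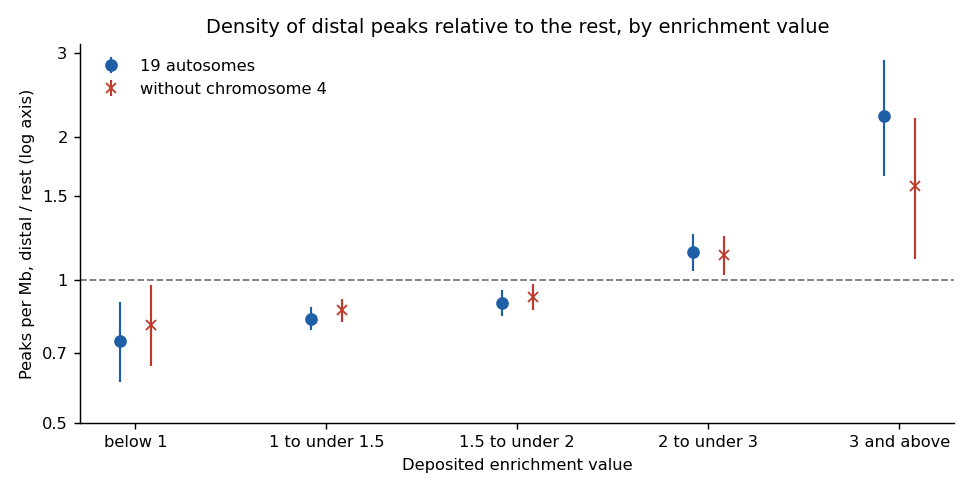
Peaks per Mb in the distal ends divided by peaks per Mb in the rest (log axis), by class of deposited enrichment value, with exact binomial 95% intervals. Circles are all 19 autosomes and crosses leave out chromosome 4. The ratio goes from 0.743 for values below 1 to 2.21 for values of at least 3, or 1.58 without chromosome 4.

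The medians differed in the same direction by a small amount. The distal median value was 1.53 (order-statistic 95% interval 1.51 to 1.54, quartiles 1.28 and 1.87) and that of the rest 1.48 (1.48 to 1.49, quartiles 1.25 and 1.77). The p score is the deposited p-value on a negative log10 scale, multiplied by 10. Its median was 112 (110 to 114) in the distal ends and 107 (107 to 107) in the rest. A false discovery rate of at most 1% was given to 80.5% of distal peaks (79.0 to 81.9%) and 77.2% of the others (76.9 to 77.5%).

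Among peaks of similar tag number the difference depended on the class and on chromosome 4. Among peaks of 15 tags the median value was 1.45 (1.42 to 1.46) in the 1073 distal peaks and 1.39 (1.39 to 1.40) in the others, and values of at least 3 made up 0.932% (0.448 to 1.71%) and 0.277% (0.219 to 0.346%). At 16 to 20 tags these shares were 1.66% (1.06 to 2.48%) and 0.594% (0.520 to 0.676%), at 21 to 30 tags 3.70% (2.04 to 6.14%) and 1.90% (1.65 to 2.17%). At 31 to 50 tags they were 1.54% (0.187 to 5.45%) and 2.21% (1.749 to 2.76%). The intervals overlap in the classes of 21 to 30 and of 31 to 50 tags, which hold 378 and 130 distal peaks. Above 50 tags 8 of 45 distal peaks had such a value (17.8%, 8.002 to 32.1%), against 39 of 1090 (3.58%, 2.56 to 4.86%). Without chromosome 4, a comparison added after seeing the data, the 15-tag class held 3 of 1030 distal peaks at 3 or above (0.291%, 0.0601 to 0.849%), close to the 0.261% (0.203 to 0.331%) of the other 18 rests. The shares at 16 to 20 tags were then 1.19% (0.682 to 1.93%) and 0.5797% (0.504 to 0.664%), and those above 50 tags 16.3% (6.81 to 30.7%) and 4.13% (2.94 to 5.62%). The intervals still overlapped at 21 to 30 tags, with 2.75% (1.33 to 4.994%) and 1.87% (1.61 to 2.15%), and at 31 to 50 tags, with 1.57% (0.191 to 5.57%) and 2.37% (1.87 to 2.96%). Without chromosome 4 a higher distal share was thus seen beyond the counting intervals at 16 to 20 and above 50 tags. At 16 to 20 tags the margin was narrow, 0.682 against 0.664%. Above 50 tags the 7 distal peaks of at least 3 included those of 52, 63 and 96 tags on chromosome 12. Those of 52 and 96 tags lay in its dense step between 4 and 5 Mb, described below.

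By chromosome the distal median value was higher than that of the rest on 14 of 19 and lower on chromosomes 3, 12, 13, 17 and 18. It was 2.0 (1.85 to 2.18) on chromosome 4, 1.78 (1.72 to 1.92) on chromosome 11, 1.74 (1.62 to 1.89) on chromosome 15 and 1.67 (1.58 to 1.74) on chromosome 16, while the rests of these chromosomes had 1.46, 1.55, 1.48 and 1.45. At the other end were chromosome 12 with 1.34 (1.29 to 1.40), chromosome 3 with 1.35 (1.31 to 1.41), chromosome 17 with 1.36 (1.28 to 1.42) and chromosome 18 with 1.40 (1.36 to 1.47), against 1.49, 1.45, 1.51 and 1.46 in their rests. The distal medians spread from 1.34 to 2.0, wider than the 1.45 to 1.55 of the rests, which average over longer sequence. Among 5 Mb blocks the range was wider still, from 1.25 to 2.05 in the 454 others. The distal block had the highest median of its chromosome on 16, and 1 block was higher on chromosomes 4, 11, 15 and 19. On chromosomes 12 and 17 it had the lowest median of 23 and 18 blocks. The telomere-side end is thus no uniform class, and the pooled difference averages over chromosomes that lie on opposite sides of their own rests.

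Values of at least 3 occurred in 14 of the 19 distal ends. After chromosome 4 with 19 came chromosome 7 with 7 of 146 peaks (4.79%, exact binomial 95% interval 1.95 to 9.63%), chromosome 11 with 6 of 110 (5.45%, 2.03 to 11.5%) and chromosome 15 with 5 of 149 (3.36%, 1.10 to 7.66%). Chromosomes 3, 5, 14, 17 and 18 had none, and with 123 to 192 distal peaks each, a count of 0 allows shares of up to 1.90 to 2.95% (exact binomial). On chromosome 17 the rest held the highest share of all rests, 1.42%. At least 5 such peaks were held by 4 of the 19 distal blocks (21.1%) and 25 of the 454 others (5.51%), and none at all by 5 distal blocks (26.3%) and 170 others (37.4%).

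Along the distance from the end, high values were more frequent between 1 and 5 Mb than in the last 1 Mb. In the last 1 Mb 4 of 786 peaks reached 3 (0.509%, 0.139 to 1.298%), an interval that includes the 0.770% of the rest, and the median value was 1.44 (1.40 to 1.47). In the 4 Mb further in 53 of 2223 reached it (2.38%, 1.79 to 3.11%). By steps the shares were 1.90, 2.31, 2.96 and 2.43% and the medians 1.54, 1.59, 1.62 and 1.5. Without chromosome 4 the 4 Mb gave 35 of 2141 (1.63%, 1.141 to 2.27%) and the last 1 Mb 3 of 767 (0.391%, 0.0807 to 1.139%), so these intervals nearly met. By steps the shares of the 4 Mb were then 0.894, 1.66, 2.47 and 1.62%. The interval of the step from 1 to 2 Mb, 0.291 to 2.07%, includes the 0.761% of the other 18 rests. The median value of the last 1 Mb was below that of the other 4 Mb on 16 of 19 chromosomes, with chromosomes 2, 7 and 12 as exceptions. The denser last 1 Mb thus had the lower median value.

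High values did not stop at 5 Mb. Between 5 and 10 Mb 1.44% of peaks reached 3 (1.04 to 1.95%) and the median was 1.58 (1.56 to 1.60), above the distal median of 1.53. Between 10 and 20 Mb the share was 1.26% (0.991 to 1.58%) and between 30 and 40 Mb 0.792% (0.588 to 1.04%). The steps from 15 to 16 and from 16 to 17 Mb had 2.44 and 2.63%, as high as any step of the distal 5 Mb but that from 3 to 4 Mb. Without chromosome 4 the share was 1.31% in the distal 5 Mb and 1.38% between 5 and 10 Mb. The higher share of high values therefore belongs to a broader zone than the 5 Mb of the rule.

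**Figure D3:**
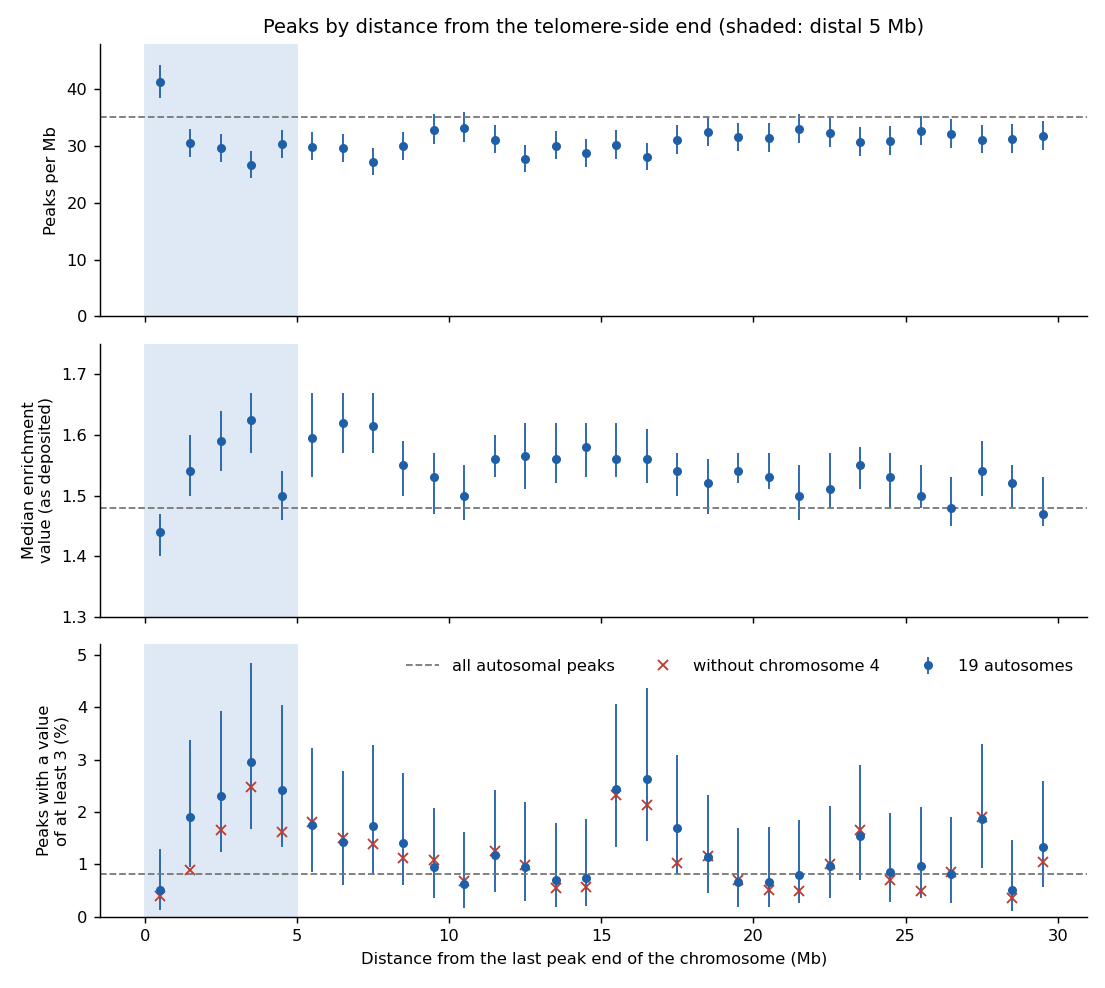
Peak density, median deposited enrichment value and share of peaks with a value of at least 3, in 1 Mb steps from the last peak end of 19 autosomes, with 95% intervals (exact Poisson, order statistic, exact binomial). The dashed lines give the value of all autosomal peaks and crosses leave out chromosome 4. The first step stands out with 41.4 peaks per Mb and a median of 1.44, and the share of high values is 1.44% still between 5 and 10 Mb.

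The distal end of chromosome 4 stood furthest from its chromosome. Its 101 peaks had a median value of 2.0, 51 of them (50.5%) reached 2, 19 (18.8%, exact binomial 95% interval 11.7 to 27.8%) reached 3 and none lay below 1. Its rest had 0.895% at 3 or above. The 19 high peaks lay between 150625382 and 155295684, with 1, 6, 4, 3 and 5 of them in the 1 Mb steps from the end inward. Most were of ordinary size, with 14 of 19 at no more than 20 tags and a median of 16, which is also the median of all distal peaks. The next 5 Mb block of chromosome 4 held 4 (2.42%), the most in any other block of the chromosome was 8, in a block of 81 peaks 15 to 20 Mb from the end (9.88%, median value 2.05), and the most in any block of another chromosome was 10 of 102, on chromosome 17. All 5 steps of the end were thinly filled, with 19 to 22 peaks each. Low density and a median value of 1.81 or more were thus found in every step, while the last 1 Mb held 1 of the 19 high peaks.

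The distal end of chromosome 12 differed in the opposite direction, with more peaks of lower value. Between 4 and 5 Mb from the end, from 116236659 to 117232775, lay 67 of its 207 peaks. Their median was 34 tags (quartiles 19.5 and 47.5) and 883 bp, against 16 tags and 570 bp in the 19 peaks of the neighbouring step nearer the end, and 17 tags and 586 bp in the 24 peaks beyond the limit. Their median value was 1.2, and 13 lay below 1. This step held 14 of the 45 distal peaks of over 50 tags and both distal peaks over 2000 bp, at 116445681 to 116447889 with 97 tags and a value of 1.61, and at 116355884 to 116358073 with 91 tags and a value of 0.88. It also held the distal peak with the highest value of all, described next. Without this step the remaining 140 distal peaks of chromosome 12 lay at 35 per Mb, close to the 34.5 of its rest, and their median value was 1.4, still below its 1.49. The high distal density of this chromosome therefore came from 1 step. Without it the mean number of tags of the distal peaks was 18.6 in place of 19.02.

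**Figure D4:**
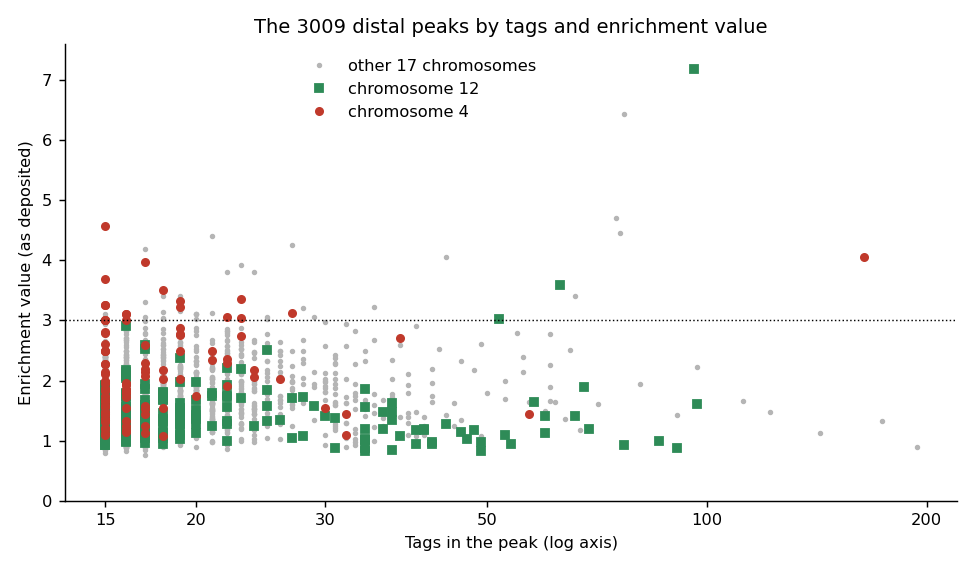
Each point is 1 distal peak, with its tags (log axis) and its deposited enrichment value. Circles mark chromosome 4, squares chromosome 12 and small dots the other 17 chromosomes, and the dotted line is a value of 3. Chromosome 4 has 19 peaks on or above the line, most of them at 15 to 20 tags, and chromosome 12 holds the highest value, 7.18, and many peaks of over 30 tags near a value of 1.

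The leading distal peaks by p score were 5 peaks on 5 chromosomes, and these were also the 5 distal peaks with a false discovery rate of 0%. The first, on chromosome 12 at 116610313 to 116611066, held 96 tags (exact Poisson 95% interval 77.8 to 117), with a p score of 1669 and a value of 7.18, the highest of the set. The second, on chromosome 4 at 152526816 to 152527803, held 164 tags (140 to 191), with a p score of 1631 and a value of 4.06. On chromosome 15, the peak at 100696783 to 100698142 held 76 tags (59.9 to 95.1), with a p score of 1276 and a value of 4.45. These 3 peaks measured 754, 988 and 1360 bp, above the upper quartile of the distal lengths, 633 bp. The peak on chromosome 16 at 93789060 to 93789965 held 77 tags (60.8 to 96.2), with a p score of 1192 and a value of 6.43. That on chromosome 7 at 148994451 to 148995876 held 66 tags (51.04 to 84.0), with a p score of 1050 and a value of 3.40. Of the 20 autosomal peaks with the highest p scores 2 were distal, and of the 100 with the highest values 11 were, where distal peaks make up 3.55% of the autosomal list.

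By enrichment value 3 of these peaks, on chromosomes 12, 16 and 15, led again. They were joined by chromosome 19 at 61000140 to 61001153, which held 75 tags (59.0 to 94.0) with a value of 4.70, and by chromosome 4 at 151504103 to 151504539, which held 15 tags (8.40 to 24.7) with a value of 4.58. The peak on chromosome 19 was 341 kb from the end and is 1 of the 4 high peaks in the last 1 Mb. The peak on chromosome 4 has the lowest tag count of the list, so its value rests on few tags. High values were more frequent among tag-rich peaks, at 8 of the 45 distal peaks of over 50 tags (17.8%) against 1.89% of all distal peaks. The 57 peaks of at least 3 were still mostly not tag-rich, since 33 of them held 20 tags or fewer. Most distal peaks are of that size, 35.7% with 15 tags and 46.0% with 16 to 20.

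By tags the leading peaks were mostly other ones. The most tags, 194 (168 to 223), were held by chromosome 19 at 61339537 to 61340580, 1.48 kb from the last peak end, with a value of 0.89. Next came chromosome 9 at 123370584 to 123371786 with 174 tags (149 to 202) and a value of 1.32, the peak of 164 tags on chromosome 4 named above, chromosome 9 at 123782065 to 123782478 with 143 tags (121 to 168) and a value of 1.12, and chromosome 1 at 197067445 to 197068389 with 122 tags (101 to 146) and a value of 1.48. The peak of 143 tags was 414 bp long and had 345 tags per kb, the highest of the distal set, where the median was 28.6. Of these 5 peaks 4 lay in the last 1 Mb, at 1.48, 693, 282 and 94.6 kb from the end, and none of those 4 had a value of 1.5 or more. The third longest distal peak, on chromosome 13 at 116758696 to 116760662, measured 1967 bp and held 62 tags with a value of 1.64.

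The last peaks themselves were ordinary on most chromosomes. They held 15 to 71 tags, with values from 1.08 on chromosome 1 to 2.83 on chromosome 7. The only ones above 31 tags were on chromosome 8, with 37 tags (26.1 to 51), and chromosome 19, with 71 tags (55.5 to 89.6). On chromosome 19 the last peak, at 61341111 to 61342056, is the nearest neighbour of the peak of 194 tags.

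The opposite ends of the same chromosomes, the first 5 Mb from the first peak start on the centromere side, held more peaks. They had 4658 peaks, or 49.0 per Mb (47.6 to 50.5), and the distal density was 0.646 times theirs (0.617 to 0.676). The centromere-side peaks had a median of 17 tags, 592 bp and a value of 1.45 (1.44 to 1.47), against 16 tags, 585 bp and 1.53 in the distal ends. Values of at least 3 made up 0.687% of them (0.470 to 0.968%) and values below 1 5.73% (5.08 to 6.44%), against 1.89% and 3.62% in the distal ends. Per Mb, values of at least 3 were 1.78 times as dense in the distal ends (1.14 to 2.84). Values of at least 2 had similar densities, 5.82 per Mb in the distal ends and 5.86 on the centromere side. Neighbours less than 1 kb apart were 12.8% of neighbouring pairs (11.9 to 13.8%) there, 8.03% (7.08 to 9.06%) in the distal ends and 8.17% (7.98 to 8.36%) in the sequence between. The sequence between both ends held 34.7 peaks per Mb and 0.775% of its peaks reached 3. The distal ends thus lay below it in density and above it in this share, while the interval of the centromere-side share includes 0.775%.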

How the data were processed

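The authors' list holds the peaks of 1 Smad4 ChIP-seq library, and per the file headers its columns are those MACS writes. The submitters' processing notes name BWA, SICER, MACS and mm9, without versions or settings. Tag counts per peak, the p score (10 times the negative log10 of a p-value), the fold enrichment and the FDR in percent were deposited by the authors, and positions and lengths in bp were used as deposited. The name of the list mentions 10 kb and transcription start sites. No source used here says if it was filtered by them. Library depths are unknown.

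Computed here were densities per Mb of span (first peak start to last peak end), medians, shares, blocks and steps. Exact Poisson, Clopper-Pearson and order-statistic 95% intervals cover counting error only. No test was made, because each group has 1 library. The procedure was tested on simulated peaks placed independently and evenly at random. Real neighbouring peaks are not independent, so that test cannot show that the intervals hold for these data. Named peaks are the distal peaks with the 5 highest p scores, enrichment values and tag counts, the 3 longest and the last peaks. The members, blocks and classes were chosen with earlier results of these data known. Genes and sequence were not analysed, because mm9 annotation was not used here. Scripts ran in Python 3.11.15. Tables used pandas 2.3.3 with numpy 2.4.6, intervals used scipy 1.17.1 and figures used matplotlib 3.10.9.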

Additional observations from a re-analysis of the deposited data

How the results depend on the processing

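The density ratio of 0.898 depended on the length of the end, and it moved towards 1 but stayed below it when weak peaks were left out. It was 1.02 for the last 2 Mb, on the other side of 1, 0.937 with FDR at most 1%, 0.981 for values of at least 1.5 and 0.830 without the last 1 Mb, an alternative added after seeing the data. The difference in median value, 0.05, was 0.00 for the last 2 Mb, 0.07 for the last 10 Mb, 0.10 as a median over chromosomes and 0.08 without the last 1 Mb. The difference in the share of values of at least 3, 1.12 percentage points, was 0.293 for the last 2 Mb and 0.502 as a median over chromosomes. The difference in median tags was -1 with peaks under 1 kb apart merged, and that in tags per kb, -0.203, was -0.352 with FDR at most 1%, -0.0410 for the last 10 Mb and -0.0537 with peaks merged. Leaving out each chromosome gave ratios of 0.882 to 0.920, value differences of 0.04 to 0.06 and share differences of 0.545 (without chromosome 4) to 1.26 points. For these values the cause was not tested. The limit of 1.5 was not applied to the results on the enrichment value itself. Stretches of over 500 kb without peaks (added after seeing the data), dense windows, whole peaks only and the rest without its first 5 Mb left each result they were run on within its interval. No paired analysis was possible because the list comes from 1 antibody library without a replicate.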
